A study of Rattus norvegicus with 2 samples.

Results

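The 1015 peaks described here are those that the deposited annotation placed in an exon, out of 28706 peaks in all (3.54%, 95% Wilson interval 3.33 to 3.76%). They come from chromatin immunoprecipitation sequencing (ChIP-seq) of the myocardium of Wistar rats, all male, whose abdominal aorta was constricted. In this surgery a 0.7 mm wire and the aorta, above the renal arteries, are ligated together to narrow the vessel. The labels give neither an age nor a number of animals. For the antibody they hold a supplier's product code, and its target was taken from the title of the series to be lactylated lysine 18 of histone H3 (H3K18la). A second library, input of the same group, has no values here, and unoperated or treated rats were not analysed here. With 1 library there is no replicate error and no test: the intervals cover counting error alone, and peaks of 1 library are not replicates of each other. Myocardium holds several cell types, so a mark in few cells and a weaker mark in many cannot be told apart.

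H3K18la is a histone modification derived from lactate, and it is known as a mark of active promoters and enhancers. Such marks sit on the nucleosomes that flank a transcription start site (TSS), so a peak centred a short way into a gene often lies in its exon 1. A peak deep in a gene can lie in an exon by its position alone, since exons are scattered through gene bodies that also hold intragenic enhancers. For each member the annotation gives the transcript that holds the exon, the number of the exon and the number of exons in that transcript. Members were sorted by these numbers into exon 1 of a transcript with several exons, an inner exon, the last exon, or the exon of a single-exon transcript. The chosen exon is that of 1 transcript model, and another model of the same gene can number it differently.

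The bases under the peaks are not shown, since no genome of their build, rn6, was used here. The sequences below are the 250 bases upstream of the TSS in RefSeq's build GRCr8. They are shown for the 6 genes, among those with an entry in RefSeq's table, of the strongest exon 1 or single-exon peaks that reached at least 100 bp upstream of the TSS. Such peaks overlap this stretch as far as both builds place the TSS alike. Each is printed 5′ to 3′ on the strand of its gene. Capitals mark matches, on either strand, to the TATA box (TATAAA), the CCAAT box (CCAAT), the GC box (GGGCGG), the cAMP response element (TGACGTCA) or its core (TGACG, contained in the whole element), and the E box (CACGTG).
Sec24b: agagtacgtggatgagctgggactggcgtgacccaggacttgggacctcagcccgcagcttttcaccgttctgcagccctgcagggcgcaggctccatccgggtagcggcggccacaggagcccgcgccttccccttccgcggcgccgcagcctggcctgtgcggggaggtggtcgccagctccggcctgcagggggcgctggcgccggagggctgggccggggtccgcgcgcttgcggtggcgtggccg
Hcfc1: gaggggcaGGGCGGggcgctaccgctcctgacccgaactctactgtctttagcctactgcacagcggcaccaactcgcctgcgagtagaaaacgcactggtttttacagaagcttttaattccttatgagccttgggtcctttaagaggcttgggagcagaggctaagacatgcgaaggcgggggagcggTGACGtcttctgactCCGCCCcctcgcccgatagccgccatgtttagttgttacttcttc
Rassf1: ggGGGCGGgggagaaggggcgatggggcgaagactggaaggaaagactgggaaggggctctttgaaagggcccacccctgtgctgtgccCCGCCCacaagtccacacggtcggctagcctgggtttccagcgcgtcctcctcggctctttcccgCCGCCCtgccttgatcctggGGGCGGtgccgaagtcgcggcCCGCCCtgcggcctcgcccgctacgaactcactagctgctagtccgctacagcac
Ivns1abp: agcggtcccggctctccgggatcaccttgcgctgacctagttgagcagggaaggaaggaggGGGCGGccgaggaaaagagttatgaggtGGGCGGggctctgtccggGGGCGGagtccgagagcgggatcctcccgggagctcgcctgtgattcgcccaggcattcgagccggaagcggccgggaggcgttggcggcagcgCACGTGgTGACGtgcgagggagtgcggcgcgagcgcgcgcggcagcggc
Tnfrsf1a: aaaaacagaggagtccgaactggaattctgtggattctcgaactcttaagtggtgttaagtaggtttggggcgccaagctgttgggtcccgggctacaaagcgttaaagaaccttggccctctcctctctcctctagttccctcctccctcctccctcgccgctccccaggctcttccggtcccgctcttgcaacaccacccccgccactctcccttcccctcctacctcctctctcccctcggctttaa
Atf4: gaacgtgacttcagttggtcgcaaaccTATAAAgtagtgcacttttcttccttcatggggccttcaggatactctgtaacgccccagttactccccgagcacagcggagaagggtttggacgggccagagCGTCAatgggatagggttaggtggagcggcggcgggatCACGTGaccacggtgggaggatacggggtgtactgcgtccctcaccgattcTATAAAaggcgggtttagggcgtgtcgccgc
The stretches are Sec24b at chr2:221306920-221307169 (minus strand), Hcfc1 at chrX:156863814-156864063 (minus strand), Rassf1 at chr8:117103415-117103664 (plus strand), Ivns1abp at chr13:65976819-65977068 (plus strand), Tnfrsf1a at chr4:159836869-159837118 (plus strand) and Atf4 at chr7:113684431-113684680 (plus strand). Atf4 has 2 TATA boxes, 1 E box and 1 core. Hcfc1 has 2 GC boxes and 1 core, Rassf1 has 5 GC boxes, and Ivns1abp has 3 GC boxes, 1 E box and 1 core. Sec24b and Tnfrsf1a have no match. Among the same 250 bases of 19005 protein-coding genes, 12.3% hold TATAAA, 35.5% CCAAT, 40.3% GGGCGG, 21.1% TGACG, 2.03% TGACGTCA and 6.38% CACGTG. These matches describe letters only, and nothing about a bound factor follows from them.

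The most frequent position of an exon peak was exon 1. Of the 1015 members, 489 were in exon 1 of a transcript with several exons (48.2%, 45.1 to 51.3%), 276 in an inner exon (27.2%, 24.54 to 30.01%), 193 in the last exon (19.0%, 16.7 to 21.5%) and 57 in a single-exon transcript (5.62%, 4.36 to 7.21%). Nearly all members lay in exons of protein-coding transcripts, 964 of 1015 (94.98%). Long intergenic noncoding RNAs (lincRNAs) held 38 members (3.74%), of which 18 were in exon 1 and 17 in last exons.

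The counts dropped steeply with exon number. Exon 1, single-exon transcripts included, held 546 peaks (53.8%). Exon 2 held 151 (14.9%), exon 3 held 57 (5.62%), and exons 4 and 5 held 40 each. Exons 6 to 10 together held 83 peaks, exons 11 to 20 held 65, and exons 21 to 87 held 33. The share of exon sequence at each exon number was not analysed here, so these are counts and not densities. The host transcript had a median of 8 exons for exon 1 peaks, 11 for inner exon peaks and 5 for last exon peaks. Of the last exon peaks, 48 were exon 2 of a transcript with 2 exons. Among the inner exon peaks, 103 of 276 were in exon 2.

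**Figure D1:**
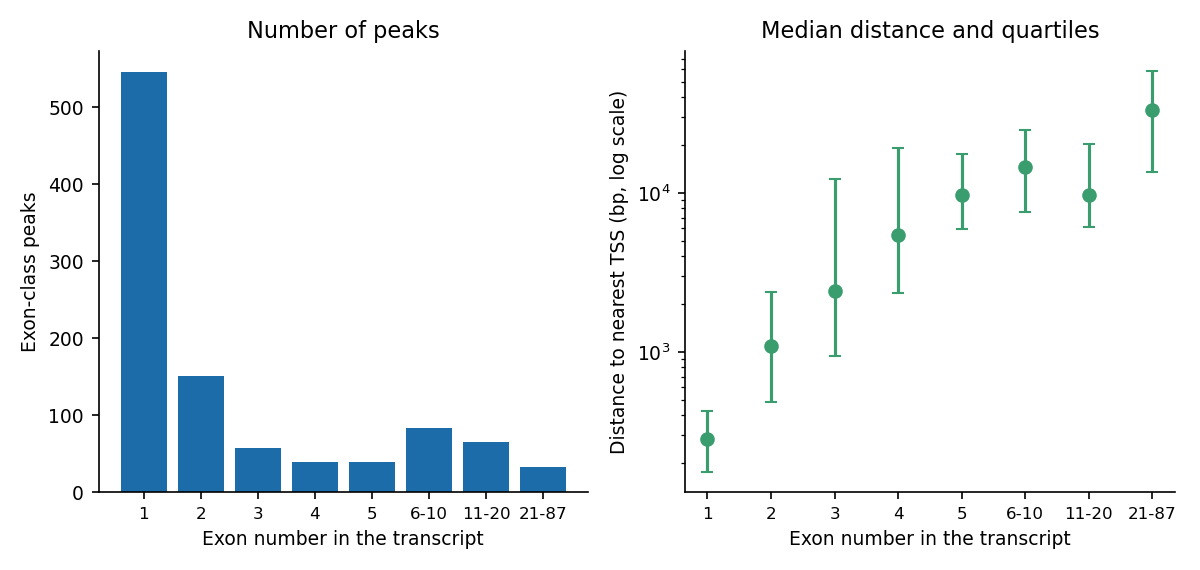
Left, the number of exon-class peaks by exon number of the host transcript, single-exon transcripts included. Right, the median absolute distance in bp from the peak centre to the nearest TSS, on a log scale, with quartiles as bars. Peaks fall from 546 in exon 1 to 40 in exon 5, while the median distance is 281.5 bp in exon 1, 14527 bp in exons 6 to 10, 9688 bp in exons 11 to 20 and 33207 bp in exons 21 to 87.

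Distance to the nearest TSS, which the annotation counts from the peak's centre and gives as positive downstream, was shortest at exon 1 and longer, though not evenly so, at higher exon numbers. The median absolute distance was 1089 bp in exon 2, 2407 bp in exon 3, 5439 bp in exon 4 and 9772.5 bp in exon 5. It was 14527 bp in exons 6 to 10, 9688 bp in exons 11 to 20 and 33207 bp in exons 21 to 87. Among exon 1 peaks the median distance was 263 bp (quartiles 172 and 406 bp), and 482 of 489 (98.6%) were centred within 1000 bp. All 489 lay downstream, none beyond 1900 bp. The annotation gives centres around the TSS to the promoter class, so this is in part set by its rule. Single-exon peaks had a median of 528 bp, and 49 of 57 (86.0%) were within 1000 bp. The absolute distance had a median of 4341 bp at inner exon peaks and 6589 bp at last exon peaks. Of those peaks, 86 of 276 inner (31.2%, 26.0 to 36.9%) and 15 of 193 last exon peaks (7.77%, 4.77 to 12.4%) were within 1000 bp. In all, 632 members (62.3%, 59.2 to 65.2%) were centred within 1000 bp, against 17.8% of the 27691 other peaks and 19.4% of all peaks. The other peaks mix classes that are defined in part by this distance, so this contrast is partly set by the class rules. Within 1000 bp lay all 2807 promoter-class peaks and 0 of 11803 intergenic peaks. The share was 15.7% of intron peaks and 32.2% of peaks at transcription termination sites. At the limit of 1000 bp, the closest members inside were Bcl6b at 994 bp and Rsbn1l at 974 bp. The closest outside were Angptl4 at 1004 bp and Gask1b at 1076 bp.

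Members within 1000 bp are downstream by the class rule, which gives positions just upstream of a TSS to the promoter class. The other 383 members were spread over 296 downstream and 87 upstream positions, and the 87 comprised 36 inner and 51 last exon peaks. An exon upstream of the nearest TSS belongs to another transcript than the one that starts there.

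**Figure D2:**
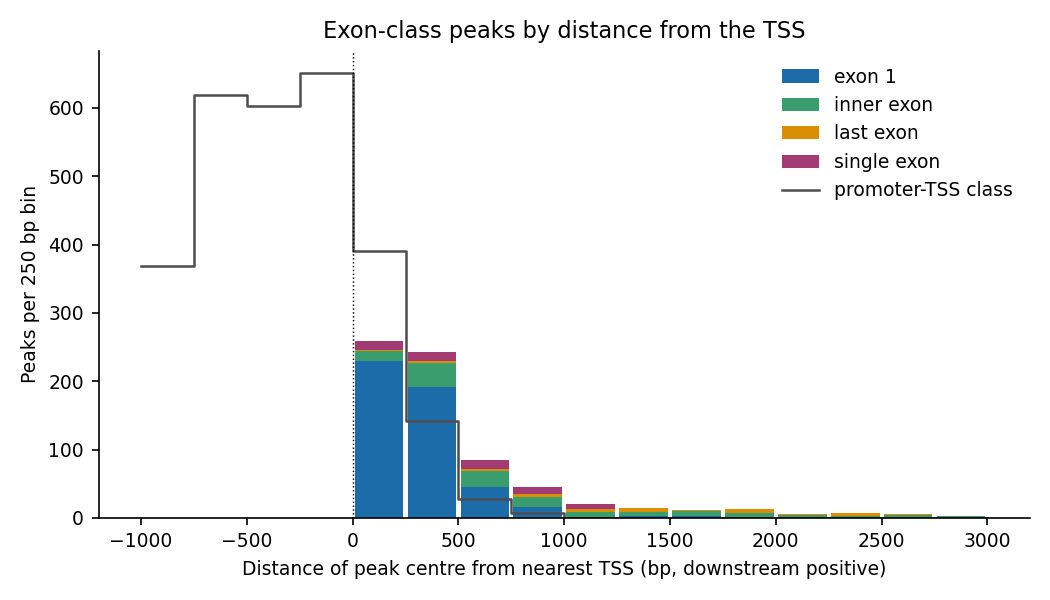
Number of exon-class peaks per 250 bp bin of distance from the nearest TSS (x axis in bp, downstream positive), stacked by exon position, with promoter-TSS class peaks as a line. From 0 to 250 bp exon 1 holds 229 peaks and from 250 to 500 bp 192, while the promoter class holds 390 and 141 in these bins and 651 in the 250 bp upstream.

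Many exon 1 peaks reached back over the TSS. A peak's span relative to the TSS follows from its centre distance and its width. Of the 447 exon 1 peaks whose exon belonged to the transcript with the nearest TSS, 44.5% (39.98 to 49.15%) had a span that held the TSS, against 1065 of 2807 promoter-class peaks (37.9%, 36.2 to 39.7%). The promoter-class set was not limited by transcript and has centres up to 999 bp upstream, so these shares do not compare like with like. The whole stretch of 250 bp before and 50 bp after the TSS was covered by 37 of the 447. The TSS lay in the span of 14 of 56 such single-exon peaks, 9 of 170 inner exon peaks (5.29%) and 2 of 99 last exon peaks (2.02%). Most host genes of exon 1 peaks had no separate peak in the promoter class. Of 465 named host genes of exon 1 peaks, 109 (23.4%, 19.8 to 27.5%) also had a promoter-class peak, against 2561 of 8094 named genes in the annotation (31.6%). For host genes of inner exon peaks this was 74 of 231 (32.0%), of last exon peaks 49 of 142 (34.5%) and of single-exon peaks 29 of 55 (52.7%, 39.8 to 65.3%). The 8094 genes are those named for a peak of any class, so a gene can be among them through its promoter-class peak alone. This raises their share, so it cannot show whether host genes of exon 1 peaks have promoter-class peaks less often.

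Fold enrichment, the authors' ratio of a peak to the caller's local background, differed little in its median with exon position. Its median was 4.14 over all members (quartiles 3.56 and 4.91; interval of the median 4.07 to 4.23), against 4.13 over the other peaks (3.62 and 4.79). By position the medians were 4.16 in exon 1, 4.16 in inner exons, 4.03 in last exons and 3.94 in single-exon transcripts, and the intervals of these medians all overlapped. The values come in steps, with 444 distinct values among the 1015 members, so small differences between peaks carry little. Members were somewhat wider than the rest, with a median of 422 bp (399 to 441 bp) against 373 bp (370 to 377 bp). Exon 1 peaks had a median width of 448 bp (422 to 479 bp), inner exon peaks 392.5 bp, last exon peaks 396 bp and single-exon peaks 442 bp. The 632 members within 1000 bp of the TSS had medians near those of intron peaks centred up to 1000 bp downstream of it. The medians were 4.16 in these members and 4.19 in the 1976 intron peaks for fold enrichment, and 447 bp and 423 bp for width.

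**Figure D3:**
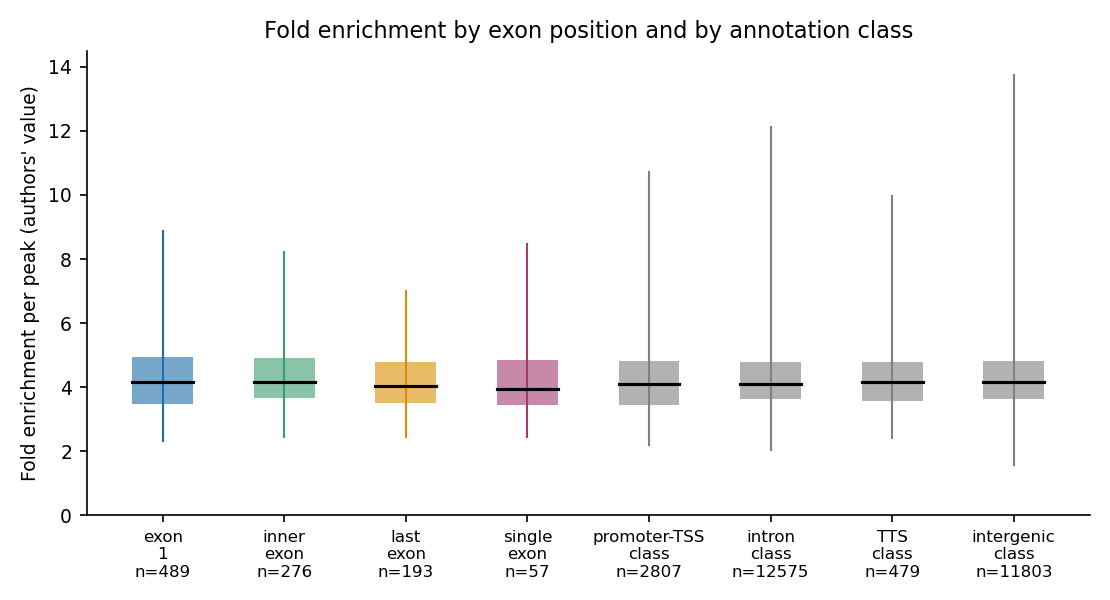
Fold enrichment per peak (y axis, the authors' ratio) for the 4 exon positions and for the other annotation classes. Boxes span the quartiles, black lines mark the medians and thin lines run from the lowest to the highest peak. Medians lie between 3.94 and 4.16 in all 8 sets, and the highest exon-class value is 8.86, against 13.7 among intergenic peaks.

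A fold enrichment of at least 6 was reached by 76 members (7.49%, 6.02 to 9.27%), against 6.31% of all 28706 peaks, so the share among members was near the background. By position it was 43 of 489 in exon 1 (8.79%, 6.59 to 11.6%), 11 of 276 in inner exons (3.99%, 2.24 to 6.9945%), 14 of 193 in last exons (7.25%) and 8 of 57 in single-exon transcripts (14.0%, 7.29 to 25.3%). The intervals of inner exons and single-exon transcripts did not overlap, the latter resting on 8 peaks. A −log10 q of at least 5 was reached by 379 members (37.3%, 34.4 to 40.4%), against 32.0% of all peaks. That share was 41.1% in exon 1, 34.8% in inner exons, 32.1% in last exons and 35.1% in single-exon transcripts, and 40.5% in the promoter class.

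Fewer members than other peaks had a close neighbour, though this did not hold for members beyond 1000 bp from a TSS. Another peak lay within 1000 bp of 470 members (46.3%, 43.3 to 49.4%), against 54.6% of all peaks. With weaker peaks left out the shares were lower in both sets. They were 28.5% of members and 37.5% of other peaks at −log10 q of at least 5, and 28.9% of members and 39.7% of other peaks at a fold enrichment of at least 4. Exon 1 peaks had such a neighbour in 190 of 489 cases (38.9%, 34.6 to 43.2%), inner exon peaks in 133 of 276 (48.2%), last exon peaks in 112 of 193 (58.0%, 51.0 to 64.8%) and single-exon peaks in 35 of 57 (61.4%). Among all peaks kept, it was 38.9% also among the 566 promoter-class peaks downstream of the TSS. The 1976 intron peaks centred up to 1000 bp downstream had 46.3%. Members within 1000 bp of a TSS had 40.3% (36.6 to 44.2%) and those beyond it 56.1% (51.1 to 61.0%).

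The strongest peaks of exon 1 were chosen by fold enrichment, and their values are a description. Ywhaz, a 14-3-3 adaptor protein, had 8.86-fold enrichment (chromosome 7, 75596300 to 75597400), centred 237 bp downstream of the TSS in exon 1 of 6. Sned1, an extracellular matrix protein, had 8.52-fold at 288 bp (chromosome 9, 100380577 to 100381029). Sec24b, of the coat of vesicles leaving the endoplasmic reticulum, had 8.36-fold at 218 bp (chromosome 2, 230356068 to 230357334). These 3 peaks differed in reach: those of Ywhaz and Sec24b spanned the TSS, and that of Sned1 started 62 bp past it. Hcfc1, an X-linked transcriptional co-regulator, had 8.30-fold at 207 bp (chromosome X, 156811713 to 156812830), and its nearest other peak was 186529 bp away. Rassf1, a Ras-association scaffold protein, had 7.73-fold at 150 bp (chromosome 8, 116310861 to 116311596). Ivns1abp, a kelch-repeat protein, had 7.64-fold at 147 bp (chromosome 13, 68702410 to 68703643). Tnfrsf1a, the main receptor for tumour necrosis factor, had 7.50-fold at 257 bp (chromosome 4, 157864809 to 157865644), and Pigv, an enzyme of glycolipid anchor synthesis, 7.43-fold at 307 bp (chromosome 5, 151896387 to 151899043). Of these 8 peaks, 7 spanned the TSS.

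Single-exon members included transcription factors of the stress response. Atf4, the effector of the integrated stress response, had 8.46-fold enrichment at 204 bp (chromosome 7, 121480610 to 121481268). Jund, a subunit of AP-1, had 7.26-fold at 822 bp (chromosome 16, 20485131 to 20486640), and Jun, its relative, 6.09-fold at 1194 bp (chromosome 5, 114011838 to 114014328). Cebpb, a leucine zipper factor of inflammation and metabolism, had 6.99-fold at 620 bp (chromosome 3, 164424652 to 164425618). The Jun peak was 2491 bp wide and lay between positions -51 and 2439 relative to the TSS, while those of Jund and Cebpb began past it. Rhob, a small GTPase, had 6.29-fold at 752 bp (chromosome 6, 33689666 to 33691433), and Frat2, a binder of the kinase GSK3, 6.65-fold at 153 bp (chromosome 1, 261089883 to 261090685). The neighbours LOC684871 and Tcim on chromosome 16 had 7.32-fold (72388350 to 72389766) and 6.35-fold (72402203 to 72402947).

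**Figure D4:**
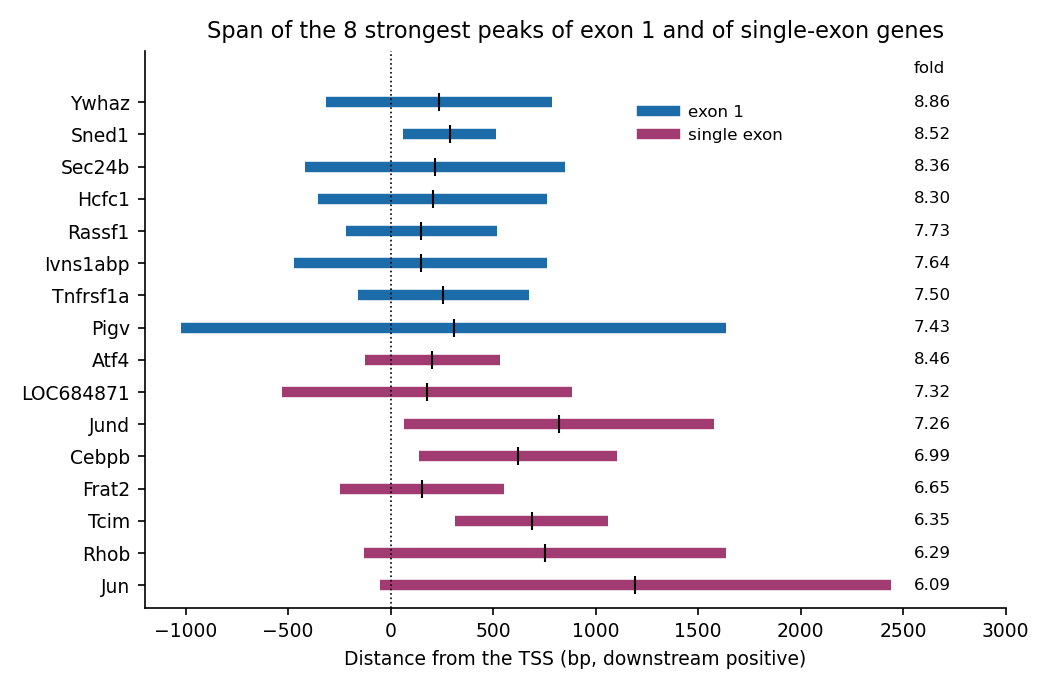
Span of the 8 strongest peaks in exon 1 (upper rows) and of the 8 strongest in single-exon transcripts (lower rows), relative to the nearest TSS (x axis in bp, downstream positive). Bars are peaks, ticks are their centres and the numbers on the right are fold enrichment. Exon 1 peaks are centred 147 to 307 bp downstream, and the single-exon peaks of Jund, Cebpb, Rhob, Tcim and Jun are centred 620 to 1194 bp downstream.

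The strongest inner exon peaks were of 2 kinds, near a TSS or deep in a gene. Near a TSS were the peaks of Ppdpf (6.59-fold, exon 3 of 4, 474 bp; chromosome 3, 176690831 to 176692776), of the stress sensor Gadd45g (6.56-fold, exon 3 of 4, 966 bp; chromosome 17, 13391299 to 13393255), of Parp16, an ADP-ribosyltransferase of the endoplasmic reticulum (6.38-fold, exon 2 of 8, 132 bp; chromosome 8, 70711752 to 70713538), and of the laminin chain Lamb2 (6.36-fold, exon 4 of 33, 667 bp; chromosome 8, 117268268 to 117269816). All 4 were at least 1549 bp wide and spanned the TSS. Deep in genes lay the strongest inner exon peak, 8.22-fold in exon 38 of 40 of an unnamed transcript 23.9 kb upstream of Tdrd7 (chromosome 5, 61540647 to 61541283). A peak of 7.69-fold lay in exon 5 of 13 of Spns2, the transporter that exports sphingosine-1-phosphate from endothelial cells (chromosome 10, 59017546 to 59018214). Lgr6, an R-spondin receptor, held 6.58-fold in exon 11 of 18 (chromosome 13, 51828213 to 51828853) and 6.23-fold in exon 9 (51831086 to 51832301). These deep peaks were 637 to 1216 bp wide. Over all inner exon peaks, those within 1000 bp of a TSS had a median fold enrichment of 4.37 (interval of the median 4.13 to 4.73) and those beyond it 4.10 (4.02 to 4.23), so the intervals overlap.

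The strongest last exon peaks, like last exon peaks as a whole, lay mostly beyond 1000 bp from a TSS. Cavin3, a coat protein of caveolae, had the strongest, 7.002-fold in exon 2 of 2 and 1390 bp from the TSS (chromosome 1, 170316308 to 170318782). A peak of 6.99-fold lay in exon 5 of 5 of an unnamed transcript, 404 bp downstream of the TSS of Psme1, a subunit of a proteasome activator (chromosome 15, 34255956 to 34256994). Spata13 held 6.80-fold in exon 13 of 13 (chromosome 15, 41066080 to 41066791). Cln8, a protein of the endoplasmic reticulum, had 6.65-fold in exon 3 of 3 and 9458 bp from the TSS (chromosome 16, 79828561 to 79828947). The other 4 of the top 8 were Mknk2, a kinase of the translation factor eIF4E, and Clec3b, the secreted protein tetranectin, at 6.59-fold each, Glrx5, a mitochondrial glutaredoxin, at 6.54-fold, and Hyal2, a hyaluronidase, at 6.51-fold. Of these 8 peaks, 1 was within 1000 bp of a TSS and 7 were not. Among all 193 last exon peaks, 15 (7.77%) were within 1000 bp and 178 were not.

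The widest member was the 5394 bp peak in exon 1 of Id1, an inhibitor of basic helix-loop-helix factors, between positions -2395 and 2998 relative to the TSS (chromosome 3, 148213146 to 148218539; 6.09-fold). A peak of 4843 bp lay in exon 1 of the lincRNA AABR07044148.1 (chromosome 19, 59653953 to 59658795; 7.09-fold). One of 4285 bp lay 940 bp downstream of a TSS of the anti-apoptotic gene Bcl2l1, in the last of 2 exons of an unnamed transcript (chromosome 3, 148309338 to 148313622; 6.48-fold). Tinagl1, a matrix protein, had 3934 bp and the ubiquitin ligase Trim8 3343 bp, both in exon 1, at 6.67-fold and 4.75-fold. These 5 belong to the 19 members of at least 2000 bp (1.87%, against 1.79% of all peaks). At the other end, the highest exon number was exon 87 of 89 of Vps13c, a lipid transfer protein, with a peak of 249 bp and 4.73-fold, 157735 bp from the nearest TSS.

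The gene name in the annotation is that of the nearest TSS and not always that of the exon. The exon's transcript was the transcript with the nearest TSS in 772 members (76.1%, 73.3 to 78.6%): 91.4% in exon 1, 61.6% in inner exons, 51.3% in last exons and 98.2% in single-exon transcripts. For 938 members the host transcript could be paired with a gene name from other rows of the same annotation, and in 90 of these (9.59%, 7.87 to 11.7%) the host gene was another than the assigned one. The share was 0 of 472 in exon 1, 38 of 248 in inner exons (15.3%) and 51 of 161 in last exons (31.7%, 24.99 to 39.2%). Where the host transcript is the one with the nearest TSS, the names agree by construction. Members without a host name were left out, and in last exons 161 of 193 had one. These shares can therefore understate the mismatch among all members. The Spns2 peak carries the name Mybbp1a, both Lgr6 peaks carry the name Ube2t, and the Spata13 peak that of C1qtnf9. Below, genes with an exon peak are counted by the host gene. Genes with a peak of any class are counted by the assigned name, since most other peaks lie in no exon, so these counts are not on the same naming.

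Most host transcripts held 1 exon peak. Of 946 host transcripts, 59 (6.24%) held more than 1 member, and 128 of the 1015 members (12.6%) lay on these. Counted by host gene, which can join several transcripts, 8 host genes had 3 or more. Lgr6 had 5, in exons 9, 11, 15 and 18 (2 peaks), from 3.05-fold to 6.58-fold. Spata13 had 4, of which 3 in its last exon. Ehd1, of endocytic recycling, Pm20d1, a secreted enzyme of lipidated amino acids, and the Notch target Heyl had 3 each, all in the last exon. Akap13, a kinase anchoring protein, had 3 side by side in exon 7 of 39, at 3.59-fold to 4.19-fold. Cd93, an endothelial lectin receptor, had 3 in exon 1, at 175, 783 and 1335 bp, with 3.72-fold, 5.89-fold and 6.04-fold. Nr1d1, the clock repressor REV-ERBα, had 3, in exons 1, 4 and 5, at 4.22-fold, 4.09-fold and 4.77-fold. Another peak named Nr1d1 lay in the last exon of Thra, a thyroid hormone receptor gene, at 3.60-fold. Each member in these 8 host genes had another peak within 1000 bp, apart from the Lgr6 peak in exon 15, whose nearest lay 2404 bp away. Peaks so close together are not independent.

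The immediate-early list, the longest of the 12, had the most exon peaks by count, though not the highest share of genes. Of 51 immediate-early and stress-induced genes, 19 (37.3%, 25.3 to 51.0%) had an exon-class peak in their own exons, against 3.4% of 23154 protein-coding genes. With any peak of any class counted, 44 of the 51 (86.3%) carried one, against 26.5% of those genes. At −log10 q of at least 5, 13 of the 51 (25.5%, 15.5 to 38.9%) had an exon peak, against 1.36% of protein-coding genes. The 21 peaks comprised 5 in exon 1, 3 in inner exons, 7 in last exons and 6 in single-exon transcripts. The median of the strongest exon peak per gene was 5.35-fold, against 4.19-fold over all 787 protein-coding host genes. Jund, Cebpb and Gadd45g led the list with the values given above. The others above 6-fold were Rhob and Jun, with Maff, a small MAF factor, at 6.18-fold in exon 3 of 3 (10074 bp from the TSS), and Ier2 at 6.09-fold in exon 3 of 3 of a transcript annotated as a pseudogene (1243 bp, 2705 bp wide). AP-1 genes had peaks at several positions: Fos in exon 1 of 4 at 4.59-fold, Junb in its single exon at 5.56-fold, and Fosb with 2 peaks in exon 4 of 4 at 4.07-fold and 3.16-fold. The Krüppel-like factor Klf4 had 5.35-fold in exon 5 of 5 and a second peak in exon 3. Dusp5, a MAP kinase phosphatase, had 5.62-fold in exon 1, Nr4a1, an orphan nuclear receptor, 4.17-fold and Myc 4.05-fold.

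Of 29 endothelial genes, 12 held an exon peak (41.4%, 25.5 to 59.3%), against 3.4% of protein-coding genes. The order of this list and the immediate-early list turned with the setting. By assigned name the shares were 37.9% of endothelial and 39.2% of immediate-early genes. At −log10 q of at least 5 they were 3 of 29 endothelial genes (10.3%, 3.58 to 26.4%) and 13 of 51 immediate-early genes (25.5%), against 1.36% of protein-coding genes. Any peak was carried by 28 of the 29, against 26.5% of protein-coding genes. The median per gene was 3.61-fold, below the 4.19-fold of all protein-coding host genes, and 1 of the 13 peaks reached 6-fold. That was Ets2, an ETS factor, at 6.76-fold in exon 1 of 10 (chromosome 11, 36074993 to 36076852). S1pr1, the receptor for sphingosine-1-phosphate, had 5.03-fold in exon 2 of 2 over 1954 bp (chromosome 2, 218654588 to 218656541). Dll4, a Notch ligand, had 4.63-fold in exon 4 of 11 and 3.62-fold in exon 11. The Nos3 peak, 3.44-fold in exon 26 of 26, carries the name of the neighbouring gene Atg9b.

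The sarcomere, glycolysis and mitophagy lists had few exon peaks each, and their intervals overlapped. Of 32 sarcomere and Z-disc genes, 5 held an exon peak (15.6%, 6.86 to 31.7%), against 3.4% of protein-coding genes, and 22 had a peak of any class (68.8%, against 26.5%). At −log10 q of at least 5, 1 of the 32 had an exon peak (3.12%, 0.554 to 15.7%), against 1.36%. The 5 were led by cardiac α-actin Actc1 at 5.25-fold in exon 2 of 7 (850 bp; chromosome 3, 105511487 to 105512692), Myom2 of the M band at 4.35-fold and Xirp1 of the intercalated disc at 4.14-fold. Mybpc3, cardiac myosin-binding protein C, had 4.08-fold in exon 2 and 3.86-fold in exon 30 of 33. All 26 glycolysis and lactate genes lacked an exon peak (0%, up to 12.9%), though 19 of them (73.1%) carried a peak of another class. The mitophagy and autophagy list had 3 of 26 (11.5%, 4.003 to 28.98%), the initiating kinases Ulk1 at 3.70-fold and Ulk2 at 3.07-fold, and Gabarapl1, a ubiquitin-like autophagosome protein, at 3.01-fold, and none of the 3 reached −log10 q of 5 (0 of 26, up to 12.9%). The interval of 0 of 26 glycolysis genes holds the 3.4% of all protein-coding genes, so a difference from them was not detectable with a list of this size.

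The other lists had between 0 and 5 such genes each, to be read against 3.4% of protein-coding genes, or 1.36% at −log10 q of at least 5. Fibroblast and matrix genes had 5 of 27 (18.5%, 8.18 to 36.7%), led by Lamb2, Vim at 5.12-fold in exon 1 and Sparc at 4.45-fold in exon 10 of 10, and 2 of 27 at the stricter threshold. Heat shock and ubiquitin genes had 3 of 21 (14.3%), the small heat shock genes Hspb8 at 4.43-fold and Hspb1 at 4.24-fold, and the chaperone Hsp90aa1 at 4.16-fold, and 2 of 21 at the stricter threshold. Cardiac transcription factors had 2 of 23 (8.70%, 2.42 to 26.8%), Srf at 4.19-fold and Gata6 at 3.76-fold. Calcium handling and ion channel genes had 2 of 25 (8.0%, 2.22 to 24.97%), the calcium channel Cacna1c at 4.23-fold in exon 30 of 45 and the potassium channel Kcnh2 at 3.55-fold in exon 12 of 15. Both of these lists had 0 at the stricter threshold. Ribosomal proteins with translation factors had 0 of 26 (up to 12.9%), immune cell genes 0 of 20 and brain and hepatocyte genes 0 of 20 (up to 16.1% each), and these intervals hold the 3.4% of all protein-coding genes. Of the defining markers, 1 of 12 for cardiomyocytes (Actc1) and 3 of 8 for endothelial cells (Kdr, Tek, Sox17) held an exon peak, against none of 6 for fibroblasts, for smooth muscle with pericytes and for immune cells. At −log10 q of at least 5 this was 1 of 12 for cardiomyocytes and 0 of 8 for endothelial cells (up to 32.4%), so their order turned. The endothelial marker peaks were weak, at 2.46-fold for Kdr, 2.95-fold for Tek and 3.46-fold for Sox17, against 5.25-fold for Actc1. Counting peaks of any class, 8 cardiomyocyte, 7 endothelial, 1 fibroblast, 2 smooth muscle with pericyte and 1 immune marker had one, against 26.5% of protein-coding genes. With 6 to 12 markers a cell type, 0 of 6 allows a share of up to 39.0%, so no difference from the 3.4% with an exon peak was detectable for the sets at 0. No peak was named for the cardiomyocyte markers Myh6, Ryr2, Nppa and Ttn. The part that cell makeup has in the list counts was not tested.

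**Figure D5:**
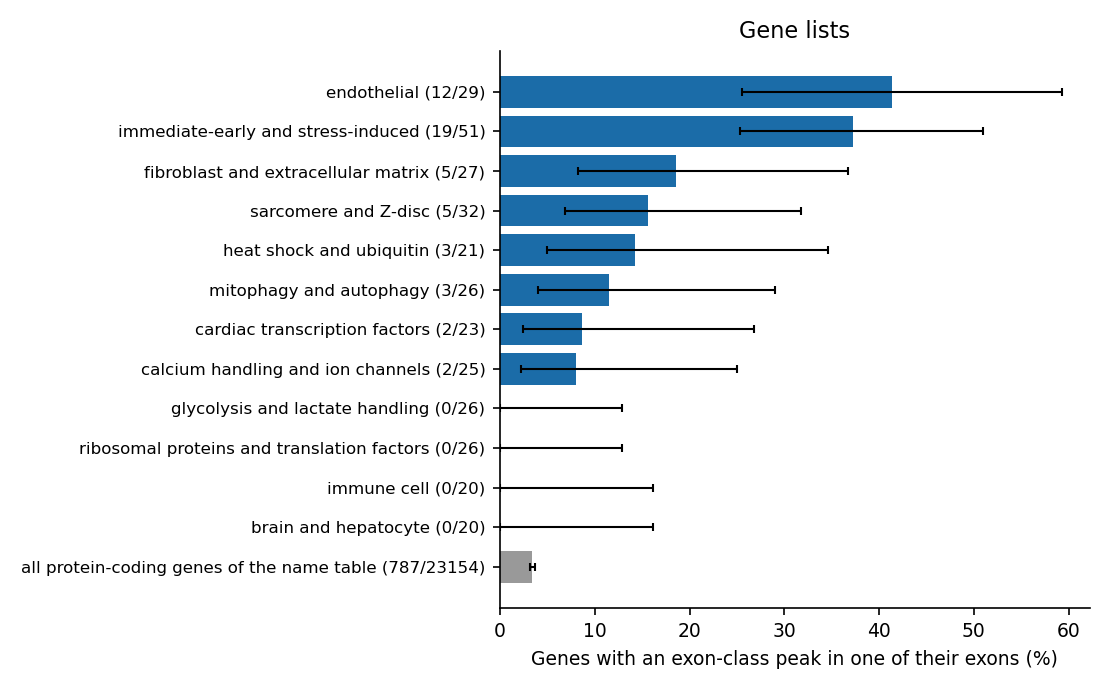
Share of genes with an exon-class peak in their own exons (x axis in %), for 12 gene lists and, in grey, for all protein-coding genes of the name table. Lines are 95% Wilson intervals. The endothelial (41.4%) and immediate-early lists (37.3%) have intervals from 25.3% upwards, and 4 lists are at 0%.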

How the data were processed

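The ChIP library's peak list and its annotation were used. The build was rn6 and the tools were HOMER, MACS2, deepTools, Bowtie2, SAMtools, Trim Galore and FastQC, per the submitters' processing notes. The annotation header's command line contains q 0.05, and the largest q was 0.0493. Versions, other peak-calling settings and use of the input are not given in the sources used here. The authors deposited fold enrichment as a linear ratio over local background. Per the file headers, p and q are given as −log10. In all 28706 peaks the authors' score equals −log10 q times 10, rounded down. These are the authors' values, used only to describe peaks. Total reads and depth are unknown, so an absent peak means no call here.

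The lists were joined by peak name. Coordinates are 1-based rn6. Spans relative to a TSS were computed from centre distance and width. A host transcript was named where it appears beside a gene name elsewhere in the annotation. Shares have 95% Wilson intervals and medians binomial order-statistic intervals, for counting error alone. No p-value was computed.

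The members, the 12 gene lists and the rules for named genes (the 8 strongest per exon position, the 5 widest, host genes with 3 or more peaks, the highest exon number, and list members) were chosen with earlier results of these data known. 1 list entry, an older symbol of another entry, was dropped. Promoter sequences are RefSeq's, build GRCr8. Comparing their composition between exon positions was void, since 57.7 to 78.3% of host genes matched, under the 80% required. Python 3.11.15, pandas 2.3.3, numpy 2.4.6, scipy 1.17.1 and matplotlib 3.10.9 were used, and the code was tested on simulated annotations.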

Additional observations from a re-analysis of the deposited data

How the results depend on the processing

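With 1 library there is no replicate to leave out. No paired analysis was possible because the ChIP and input libraries share 1 replicate number and the input has no peak file. Of 79 planned recalculations of 15 values, 47 stayed within the counting interval of the value and 32 moved out of it. Without peaks of 2000 bp or more all 15 values stayed.

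At −log10 q of at least 5, exon-class peaks were 4.13% of all peaks, with 53.0% in exon 1, 16.4% in last exons and 68.1% within 1000 bp of a TSS. At that threshold 20.1% had a fold enrichment of at least 6 and 28.5% a neighbour within 1000 bp. Median fold enrichment was then 5.20 (5.19 in exon 1, 5.24 in inner exons, 5.12 in last exons) and median width 615 bp (619 bp in exon 1, 622 bp in last exons). At fold enrichment of at least 4, medians of fold enrichment were 4.79 (4.80, 4.74 and 4.78 in the same order) and of width 492 bp (515 bp in exon 1, 464.5 bp in last exons), 13.4% reached 6-fold and 28.9% had a neighbour. Filters on strength raise the fold enrichment by construction. The fold filter kept the exon-class share (3.56%) and the shares in exon 1 (48.6%), in last exons (17.2%) and within 1000 bp (62.9%) inside their intervals, unlike the q filter, and the cause was not tested.

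With members restricted to those whose exon belongs to the transcript with the nearest TSS, 57.9% were in exon 1, 22.0% in inner exons, 12.8% in last exons and 7.25% in single-exon transcripts, and 73.1% were within 1000 bp. Exon 1 had 53.8% with single-exon transcripts added, and the last exon 24.6%. Among peaks of protein-coding genes 4.19% were exon-class. A neighbour within 500 bp stood beside 32.0%, and within 5000 bp beside 59.9%. Measured from the summit, 61.9 to 62.4% were within 1000 bp, a range because the strand was known for 673 of 1015 members.

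Added after seeing the data, list counts at −log10 q of at least 5 were 0 for mitophagy, cardiac transcription factors and calcium handling, 1 for sarcomere, 2 for fibroblast, 2 for heat shock, 3 for endothelial and 13 for immediate-early genes, which reverses the order of the endothelial and immediate-early shares. By assigned instead of host name no list count moved by over 1.5 times, though the same order turned (11 of 29 and 20 of 51). Unknown depth, shared names and the choice of transcript model limit all counts.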

Other observations

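The peaks named here were chosen after their values were seen. Noncoding transcripts held some of the strong exon peaks. After AABR07044148.1, the strongest lincRNA exon peaks were those of LOC108351370 in exon 1 of 2 (6.45-fold, 140 bp from the TSS; chromosome 6, 110839839 to 110841111) and LOC102550392 in exon 2 of 2 (5.92-fold, 5863 bp; chromosome 3, 9114700 to 9115520).

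MicroRNA genes were the nearest named genes of 10 exon peaks, from 3.02-fold to 4.53-fold. All 10 lay in exons of protein-coding transcripts, among them Trpm1 (named Mir211, 3.70-fold), Ampd3, Ppard, Bcl2l1 and Dock6. On the X chromosome stood 11 exon peaks (1.08%, 0.606 to 1.93%), against 223 of the 27691 other peaks (0.805%). Apart from Hcfc1 they ranged from 3.10-fold at Fam3a to 5.83-fold at Ofd1, a centrosome protein. On the Y chromosome, 1 exon peak was called, at 3.14-fold in AC241873.1.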
